A study of Mus musculus with 20 samples.

Results

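Transcripts of the muscle acetylcholine receptor and of the neuromuscular junction were read in skeletal muscle of 20 mice, 1 array per mouse. The set was 8 genes, taken as every probe set that the platform's annotation names for Chrna1, Chrnb1, Chrnd, Chrne, Chrng, Musk, Rapsn or Ncam1. That gave 15 of the 22690 probe sets, with 6 for Ncam1, 3 for Chrng and 1 for each of the other genes. There were 5 mice in each of 4 groups: transgenic mice after training (TGT), transgenic mice without training (TGUT), wild-type mice after training (WTT) and wild-type mice without training (WTUT). The series title describes the transgenic mice as over-expressing MHC-I, the class of molecules that present peptides to T cells, and the training as endurance training. The labels name neither the construct nor the promoter that drives it, nor the muscle, the sex, the age or the training schedule, so none of these can be checked as a limit of the model. All values are total RNA from whole muscle, in which fewer cells of a type and less RNA per cell cannot be told apart.

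The muscle nicotinic receptor is a ring of subunits that opens when the motor nerve releases acetylcholine. The alpha subunit (Chrna1) carries the main part of each binding site for acetylcholine, and the ring also holds the beta (Chrnb1) and delta (Chrnd) subunits. The gamma subunit (Chrng) belongs to fetal and denervated muscle and is replaced by the epsilon subunit (Chrne) at the adult junction. Musk is the receptor tyrosine kinase through which nerve-derived agrin clusters the receptors, and rapsyn, from Rapsn, is the scaffold that holds them. Ncam1 is an adhesion molecule that innervated adult fibres keep mostly at the junction. After denervation, transcripts of Chrna1, Chrnd, Chrng, Musk and Ncam1 are known to rise along the fibre, driven in part by myogenin (Myog), while Chrne transcription stays mostly with the nuclei under the junction.

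Sequence upstream of the start was at hand for 5 of the 8 genes, in RefSeq's GRCm38.p6 annotation, and is shown because receptor genes are known to be read by factors that bind E-boxes and N-boxes. The E-box, CANNTG, is bound by Myog and its relatives, and the N-box, CCGGAA, by the Ets-type factor whose alpha subunit is Gabpa. Both strands were searched over the 250 bases before the start given in that table, which is the start of 1 transcript and need not be the outermost start of the gene, and the 2 motifs did not overlap in any of these windows. Capitals mark the matches. The Chrne window (chr11:70619195-70619444, minus strand), the Chrng window (chr1:87205561-87205810, plus strand) and the Chrna1 window (chr2:73580339-73580588, minus strand) stand for the adult subunit, the fetal subunit and the subunit that binds acetylcholine.
Chrne: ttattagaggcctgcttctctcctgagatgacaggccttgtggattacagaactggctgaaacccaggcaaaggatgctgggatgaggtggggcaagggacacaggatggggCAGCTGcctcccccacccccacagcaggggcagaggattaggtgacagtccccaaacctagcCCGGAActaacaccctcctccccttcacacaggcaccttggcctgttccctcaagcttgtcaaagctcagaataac
Chrng: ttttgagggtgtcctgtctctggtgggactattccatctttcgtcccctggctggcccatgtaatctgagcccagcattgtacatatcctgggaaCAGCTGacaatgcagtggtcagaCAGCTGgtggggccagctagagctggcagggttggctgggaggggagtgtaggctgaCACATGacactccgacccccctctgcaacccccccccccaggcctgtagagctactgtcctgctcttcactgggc
Chrna1: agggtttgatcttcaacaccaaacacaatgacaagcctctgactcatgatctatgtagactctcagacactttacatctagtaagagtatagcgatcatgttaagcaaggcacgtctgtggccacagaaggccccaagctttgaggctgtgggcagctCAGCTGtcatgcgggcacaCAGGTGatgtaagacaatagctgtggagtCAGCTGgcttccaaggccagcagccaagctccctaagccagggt
The Chrne window held 1 E-box and, nearer the start, 1 N-box, 76 to 71 bases before it. Chrng and Chrna1 held 3 E-boxes each and no match to the N-box letters, as did the Chrnb1 and Musk windows. The Chrng and Chrna1 windows end where the gene begins, while 19 bases of the Chrne window, 29 of the Chrnb1 window and 233 of the Musk window lie inside the outer bounds of the gene in the same annotation, so most of the Musk window is not upstream of every Musk transcript. Of 32851 windows of the same length, 66.2% held at least 1 E-box, 12.2% held at least 3, and 12% held the N-box. A match to these letters is a description of the window and does not show that a factor binds there.

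**Figure D1:**
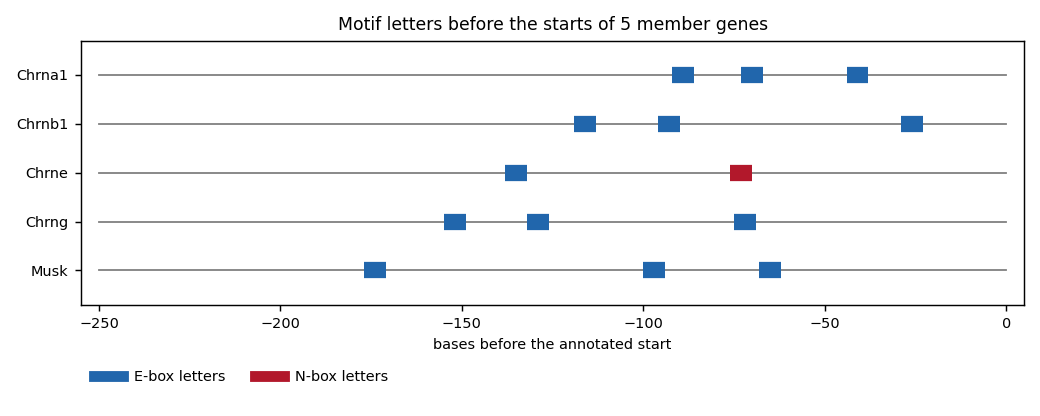
Positions of E-box and N-box matches in the 250 bases before the start of 1 transcript of each of the 5 genes with sequence, in bases before that start. Chrne has 1 E-box and the only N-box match, and each of the other genes has 3 E-boxes.

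The arrays had medians of 157 to 175 intensity units, and 0.385% of the cells of the table were empty, most of them on the trained wild-type array wtt-137 (822) and the trained transgenic array TGT-133 (386). None of the empty cells belonged to the 15 probe sets described here. All 8 skeletal muscle markers passed the filter on dim probe sets, with summed levels of 106430 to 111300 in TGT, 99212 to 107226 in TGUT, 106202 to 110264 in WTT and 103082 to 106652 in WTUT. The number of arrays limits the precision of every value below. Differences are given on the log2 scale after 66.7 units, the 20th percentile of the table, were added to each intensity. The added units understate changes, and most for dim probe sets. Errors of group means are SD over 5 mice, and errors of differences are standard errors of the limma fit, with p-values adjusted by Benjamini-Hochberg over all 13576 probe sets that passed the filter.

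No gene of the set passed an adjusted p of 0.05 in any of the 7 comparisons. The filter, a mean at or above the 40th percentile of the table (126 units), kept 8 of the 15 probe sets and 7 of the 8 genes: Chrna1, Chrnb1, Chrne, 1 of 3 probe sets of Chrng, Musk, Rapsn and 2 of 6 of Ncam1. The counts of 0 of 8 stand beside these shares of all tested probe sets: 0% for training in wild-type mice, 0.309% for training in transgenic mice, 0.11% for the transgene in untrained mice, 0.0516% for the transgene in trained mice, 4.99% for training averaged over genotypes, 1.23% for the transgene averaged over training, and 0% for the interaction of both. With shares this low, a count of 0 among 8 probe sets is near the background in each comparison. At an unadjusted p under 0.05 the limma fit had 0, 2, 0, 2, 1, 2 and 0 of the 8 in the same order, against 7.87%, 17.4%, 8.12%, 12.5%, 20.7%, 17.3% and 2.91% of all tested probe sets. The genes behind these were Musk, Rapsn and Chrne. The median difference of the 8 lay between -0.01 and 0.06 in the 7 comparisons, and that of all tested probe sets between -0.00 and 0.01.

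**Figure D2:**
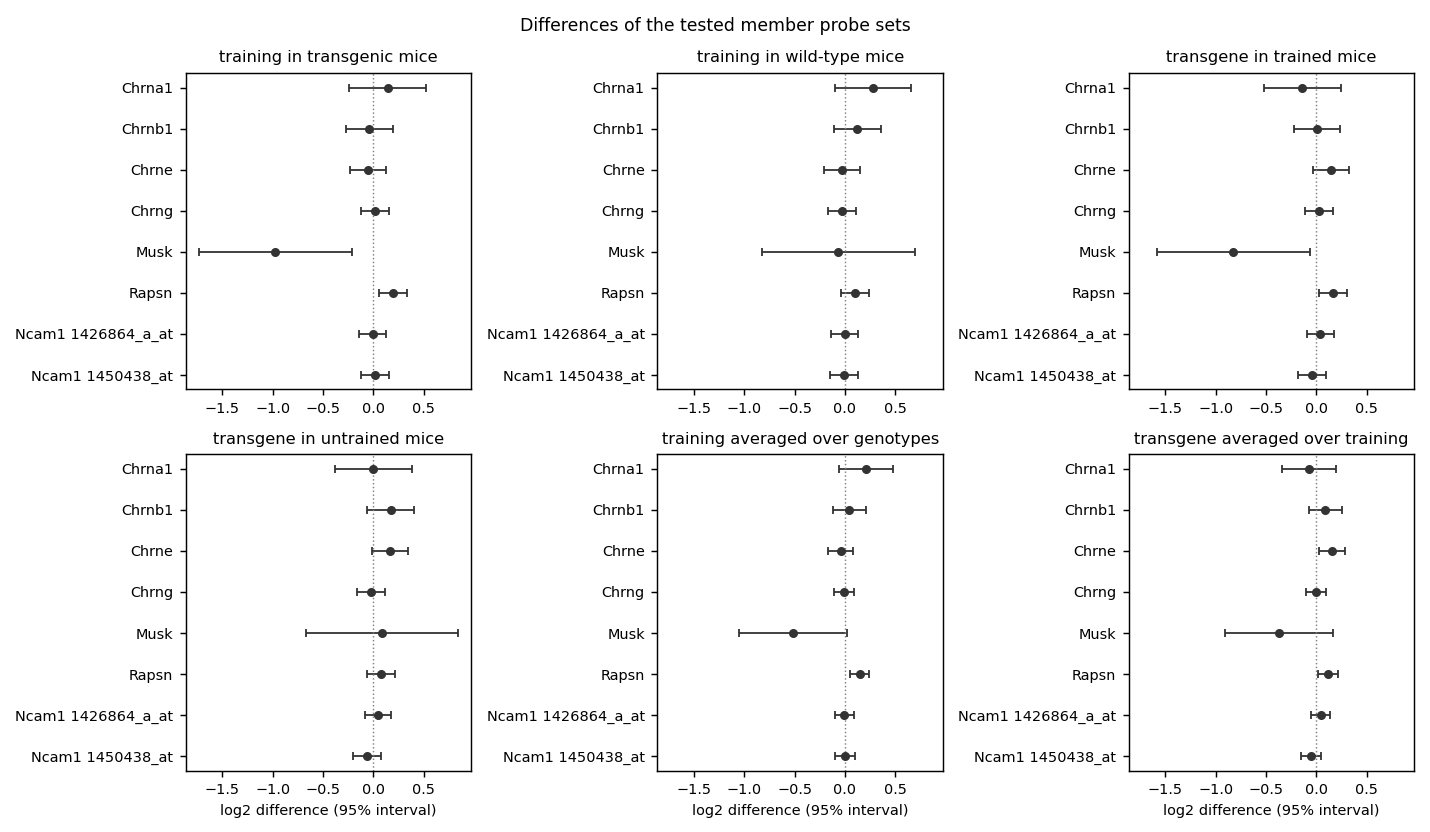
Log2 differences (x axis, after adding the constant) of the 8 tested probe sets in 6 comparisons, as points with 95% confidence intervals. The intervals of Musk are the widest, Rapsn lies above 0 after training, and no point passed the adjusted threshold.

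Musk had the largest spread of the set, and all 5 trained transgenic mice lay at its low end. Its probe set (1450511_at) read 174, 201, 242, 187 and 210.2 units in the 5 TGT mice, against 709, 628, 233, 395 and 481 units in the 5 TGUT mice. In WTT mice it read 290.4, 378, 143.7, 681 and 902 units, against 405, 755, 262, 221 and 761 units in WTUT mice. The trained transgenic mice lay close together at the low end, and 4 of them were below every untrained transgenic mouse. The exception was TGT-133, at 242 units, above the lowest untrained transgenic mouse, TGUT-145, at 233 units. The lowest and the highest array of the whole study were both trained wild-type mice, wtt-137 and WTT-144, a 6.28-fold range within 1 group.

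The Musk group means were 203 ± 25.9 units in TGT, 489 ± 189 in TGUT, 479 ± 307 in WTT and 481 ± 262 in WTUT (SD, n = 5 each). Training differed by -0.98 ± 0.36 log2 within transgenic mice, 0.509-fold, with a 95% confidence interval of -1.73 to -0.22. Its unadjusted p was 0.0143 in the limma fit and its adjusted p 0.171. The other 3 groups had means between 479 and 489 units, and training within wild-type mice differed by -0.06 ± 0.36 log2 (adjusted p = 0.996). Trained transgenic mice differed from trained wild-type mice by -0.82 ± 0.36 log2 (adjusted p = 0.363), and all 5 lay below the trained wild-type median. The difference between the training effects of the genotypes was -0.91 ± 0.51 log2, with an interval of -1.98 to 0.16 and an adjusted p of 0.9999, so the training effects were not shown to differ. Averaged over genotypes, training differed by -0.52 ± 0.26 log2 (adjusted p = 0.257), and the transgene averaged over training by -0.37 ± 0.26 log2 (adjusted p = 0.484). The spread of Musk within groups, 0.63 log2 (SD), was higher than that of 99.2% of the tested probe sets. Weighting arrays by their spread, with TGUT-145 given the lowest weight (0.38), moved the Musk difference for training within transgenic mice to -1.30 log2 with an adjusted p of 0.00818, and that averaged over genotypes to -0.71 log2 with an adjusted p of 0.0246. Under those weights 18.2% and 20.4% of all tested probe sets passed in the 2 comparisons.

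Rapsn, the receptor scaffold, had its highest group mean where Musk had its lowest. Its probe set (1449331_a_at) read 328, 294, 255, 308 and 292 units in TGT mice, against 222, 212, 292, 274 and 257 units in TGUT mice. It read 263, 235, 269.5, 245 and 269 units in WTT mice, against 242, 238, 235, 219 and 239 units in WTUT mice. In each genotype 4 of the 5 trained mice were above every untrained mouse, and the lowest trained mouse lay among the untrained ones. Among transgenic mice 1 of those 4, at 292.2 units, was level with the highest untrained mouse, TGUT-145, at 292.1 units.

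Rapsn averaged 295 ± 26.7 units in TGT, 251 ± 33.9 in TGUT, 256 ± 15.5 in WTT and 235 ± 9.08 in WTUT (SD, n = 5 each). Training averaged over genotypes differed by 0.14 ± 0.05 log2, with an interval of 0.05 to 0.24, an unadjusted p of 0.00603 and an adjusted p of 0.0781 in the limma fit. Of the 10 trained mice, 9 were above the median of the untrained mice. Within transgenic mice training differed by 0.19 ± 0.07 log2 (adjusted p = 0.145), and within wild-type mice by 0.10 ± 0.07 log2 (adjusted p = 0.794). The transgene averaged over training differed by 0.12 ± 0.05 log2 (adjusted p = 0.206), with 0.16 ± 0.07 among trained mice (adjusted p = 0.334) and 0.07 ± 0.07 among untrained mice (adjusted p = 0.884). For training averaged over genotypes and training in transgenic mice, leaving out 1 array could bring Rapsn past the threshold. Without TGUT-145 the training difference averaged over genotypes was 0.17 log2 with an adjusted p of 0.0259, and that within transgenic mice was 0.24 log2 with an adjusted p of 0.0407. Without TGT-133 the averaged difference was 0.17 log2 with an adjusted p of 0.0417. All probe sets moved too: without TGUT-145, 9.47% of those tested passed for training averaged over genotypes and 5.63% for training in transgenic mice, and without TGT-133, 5.18% passed for the averaged comparison. With array weights Rapsn passed in those 2 comparisons, at 0.20 and 0.31 log2 (adjusted p = 0.00226 and 0.00215), and for the transgene in trained mice, at 0.22 log2 (adjusted p = 0.0203), where 7.48% of all tested probe sets passed.

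**Figure D3:**
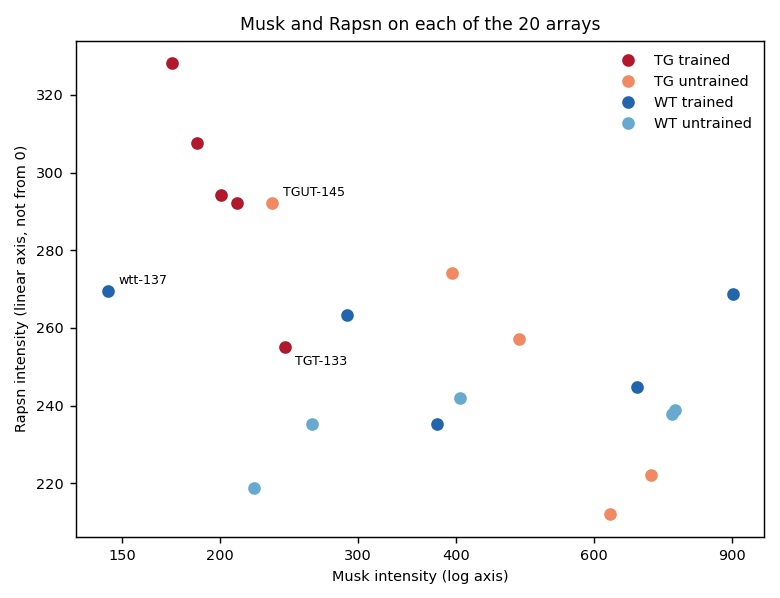
Musk intensity (log axis) against Rapsn intensity (linear axis that does not start at 0) for each of the 20 mice, coloured by group. The 5 trained transgenic mice lie together at 174 to 242 units of Musk and 255 to 328 units of Rapsn, with TGUT-145 beside them. The wild-type mice wtt-137, lowest in Musk, and WTUT-138, at 221 units of Musk, also lie at the low end, and the other 12 mice have more Musk than any of them.

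Across the 20 arrays the log2 values of Musk and Rapsn had a Pearson r of -0.57, the lowest among the 21 pairs of the 7 tested genes. This r is a description over arrays that share the group differences. The median r of the 21 pairs was 0.10, and the highest were 0.55 for Chrne with Chrng and for Chrng with Ncam1 and 0.49 for Chrna1 with Chrnb1.

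Chrne, the adult subunit, was higher in transgenic muscle by an amount that did not pass the adjusted threshold. It read 228, 179, 183, 182 and 219 units in TGT mice and 200.3, 202, 194, 259.7 and 186 units in TGUT mice. It read 151, 197, 196, 137.7 and 184 units in WTT mice and 172, 169, 198, 199.95 and 151 units in WTUT mice. All 10 transgenic mice lay above the wild-type median and 5 of them above every wild-type mouse, with the ranges overlapping between 179 and 199.95 units. The means were 198 ± 23.5 units in TGT, 208 ± 29.3 in TGUT, 173 ± 27.1 in WTT and 178 ± 20.8 in WTUT (SD, n = 5 each). The transgene averaged over training differed by 0.16 ± 0.06 log2, with an interval of 0.03 to 0.28, an unadjusted p of 0.0181 and an adjusted p of 0.193 in the limma fit. It was 0.17 ± 0.09 log2 among untrained mice (adjusted p = 0.668) and 0.15 ± 0.09 log2 among trained mice (adjusted p = 0.503). Training averaged over genotypes differed by -0.04 ± 0.06 log2 (adjusted p = 0.765).

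Beside the transgene differences of Chrne and Rapsn stand the markers of slow fibres, of which 7 of 8 fell with the transgene averaged over training at a median of -1.35 log2. In that comparison 1.23% of all tested probe sets passed. Of the 8 markers, 2 fell in untrained and 3 in trained mice, where 0.11% and 0.0516% of all tested probe sets passed. The summed levels of the markers were 3364 to 4781 units in TGT and 2955 to 6481 in TGUT, against 7929 to 16305 in WTT and 5865 to 18647 in WTUT. An empty cell added nothing to these sums. The part of slow fibres in the differences of Chrne and Rapsn was not tested.

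Chrna1, the acetylcholine-binding subunit, had its 2 highest readings in wild-type mice. It read 206, 218, 240.3, 189 and 228 units in TGT mice, against 153, 179.6, 236, 189 and 198 units in TGUT mice. It read 185, 181, 473, 202 and 257 units in WTT mice, against 163, 148, 327, 149 and 201 units in WTUT mice. The trained wild-type mouse wtt-137, whose array had the most empty cells, and the untrained wild-type mouse WTUT-136 stood above all others, and all groups overlapped. The means were 216 ± 19.7 units in TGT, 191 ± 30.3 in TGUT, 260 ± 123 in WTT and 197 ± 75.4 in WTUT (SD, n = 5 each). Training averaged over genotypes differed by 0.21 ± 0.13 log2, with an interval of -0.06 to 0.48 and an adjusted p of 0.393. Within transgenic mice it differed by 0.14 ± 0.18 log2 (adjusted p = 0.775) and within wild-type mice by 0.28 ± 0.18 log2 (adjusted p = 0.788). Without wtt-137 the averaged difference was 0.11 log2 and that within wild-type mice 0.08 log2, and without WTUT-136 they were 0.29 and 0.43 log2. The transgene averaged over training differed by -0.07 ± 0.13 log2 (adjusted p = 0.804).

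Chrnb1, the beta subunit, ranged from 256 to 347 units in TGT and 250.4 to 329 in TGUT, against 227 to 369.7 in WTT and 205 to 305 in WTUT. These ranges overlapped in every pair of groups. The means were 284 ± 36.5 units in TGT, 294 ± 34.6 in TGUT, 285 ± 58.8 in WTT and 255 ± 46.2 in WTUT (SD, n = 5 each). The transgene differed by 0.17 ± 0.11 log2 in untrained mice (adjusted p = 0.771) and by 0.00 ± 0.11 log2 in trained mice (adjusted p = 0.988), and training averaged over genotypes by 0.04 ± 0.08 log2 (adjusted p = 0.833). For none of the 8 tested probe sets did a pair of groups that share genotype or training pass the test. Trained mice of 1 genotype were not tested against untrained mice of the other, although some of these groups are neighbours in the order of means.

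**Figure D4:**
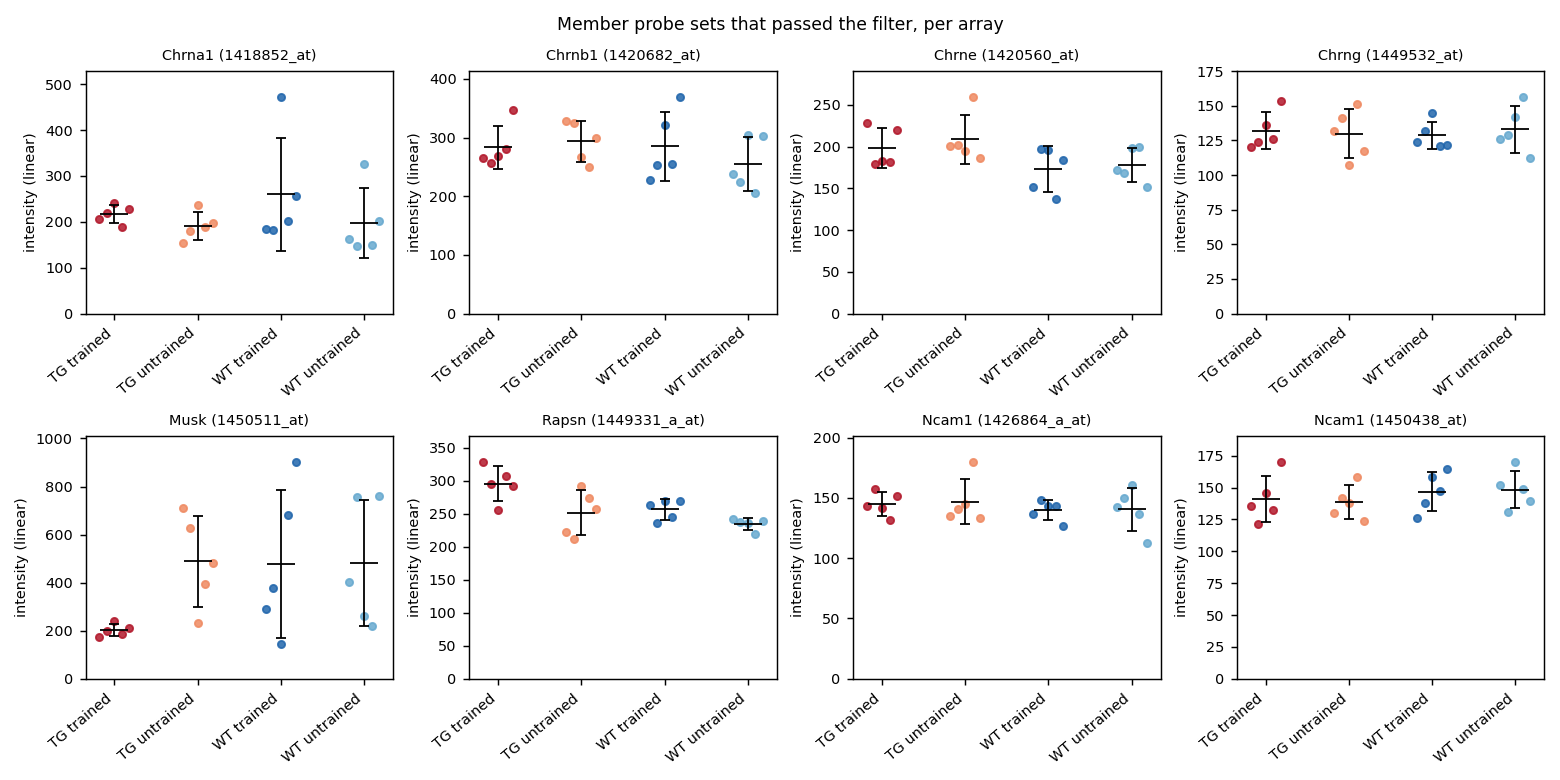
Intensity of the 8 tested probe sets in each mouse, with the mean and SD of each group; every y axis is linear and starts at 0. Musk is low in all 5 trained transgenic mice and spread widely in the other 3 groups. Every probe set, Musk included, overlaps between groups that share genotype or training.

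The fetal subunit Chrng and the delta subunit Chrnd, both known to rise on denervation, stayed near the filter in every group. The brightest Chrng probe set (1449532_at) averaged 132.1 ± 13.5 units in TGT, 129.96 ± 17.6 in TGUT, 128.7 ± 9.97 in WTT and 133.1 ± 16.9 in WTUT (SD, n = 5 each). Training averaged over genotypes differed by -0.01 ± 0.05 log2 and the transgene averaged over training by -0.00 ± 0.05 log2 (adjusted p = 0.966 and 0.9997), with both intervals inside -0.11 to 0.10. The other 2 Chrng probe sets were dim, at 30.4 to 64.1 units on all arrays, and did not enter the test. Chrnd averaged 121 ± 10.9 units in TGT, 115 ± 3.91 in TGUT, 111 ± 7.19 in WTT and 114 ± 8.13 in WTUT (SD, n = 5 each). Its values ran from 101 to 134.01 units with all groups overlapping, and it lay under the filter. No detection call was used here, so these values do not show whether either transcript was present.

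The 6 probe sets of Ncam1 did not move together. Of the 2 that were tested, 1426864_a_at averaged 145.2 ± 9.83 units in TGT, 146.9 ± 18.9 in TGUT, 139.7 ± 8.30 in WTT and 140.5 ± 18.005 in WTUT (SD, n = 5 each). The other, 1450438_at, averaged 141.1 ± 18.4 units in TGT, 138.5 ± 13.3 in TGUT, 146.8 ± 15.5 in WTT and 148 ± 14.6 in WTUT (SD, n = 5 each). The 2 differed in the sign of the transgene difference averaged over training, 0.04 ± 0.04 and -0.05 ± 0.05 log2, and neither passed (adjusted p = 0.668 and 0.584). The other 4 lay under the filter, so their differences come from the fit with no filter. In it 1421966_at differed by 0.23 log2 with training in transgenic mice (adjusted p = 0.217), and 1450437_a_at by 0.14 log2 with training and -0.13 log2 with the transgene, each averaged over the other factor (adjusted p = 0.158 and 0.262). The probe sets 1425126_at and 1426865_a_at differed by 0.01 and -0.01 log2 with training averaged over genotypes. With no filter, 0 of the 15 probe sets passed in any comparison. Of all 22626 probe sets that are not controls, 0%, 0.0265%, 0.0707%, 0.0398%, 1.98%, 0.491% and 0% passed, in the order of the 7 comparisons above.

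**Figure D5:**
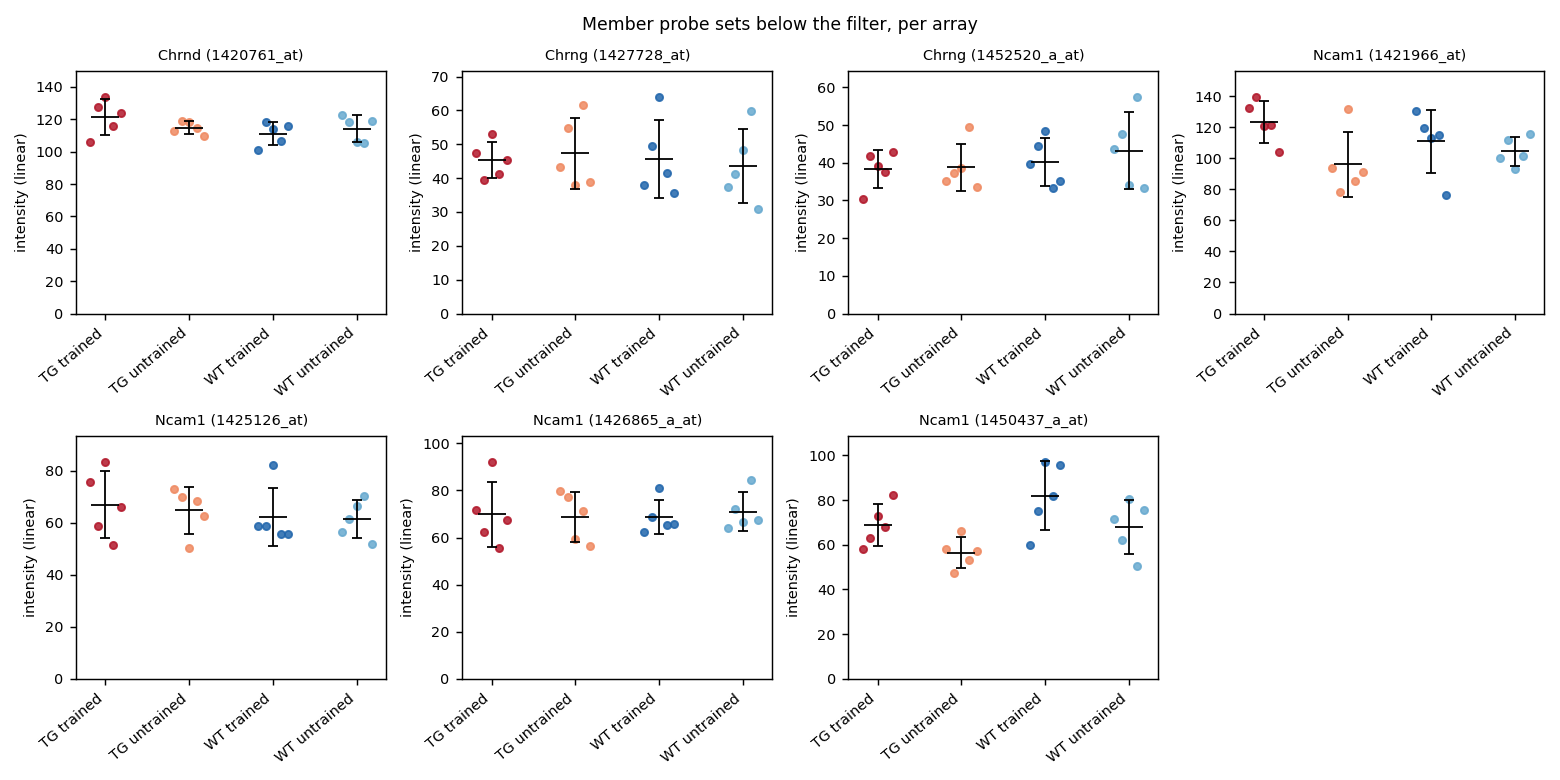
Intensity of the 7 probe sets of Chrnd, Chrng and Ncam1 that lay under the filter, for each mouse and with the mean and SD of each group. All of them lie between 30.4 and 139.8 units, and the groups overlap in each.

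Ncam1 is also made by Schwann cells and satellite cells. Of 6 tested Schwann cell markers, 3 tested axon and motor nerve markers and 3 tested satellite cell markers, 0 passed in each comparison. The sums that follow take every listed gene on the array, tested or not: 8 Schwann cell, 10 axon and 7 satellite cell genes. Most of the axon and satellite cell genes in them lay under the filter, and an empty cell added nothing. The summed Schwann cell level was 2097 to 2394 units in TGT, 2061 to 2327 in TGUT, 1980 to 2491 in WTT and 1882 to 2301 in WTUT. The summed axon level was 987 to 1139 units in TGT, 913 to 1186 in TGUT, 917 to 1073 in WTT and 844 to 1203 in WTUT. The summed satellite cell level was 892 to 1206 units in TGT, 924 to 1345 in TGUT, 916 to 1149 in WTT and 850.4 to 1214 in WTUT. The ranges of all 3 sums overlapped between groups. Of the 11 neuronal nicotinic subunits listed, Chrna3, Chrna4 and Chrna7 were tested, and 0 of these 3 passed.

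Few further genes of junction assembly and transmission passed the test. Of 42 listed, 37 were on the array and 29 were tested. With training averaged over genotypes 0 rose, 2 fell and 27 did not pass, at a median of 0.00 log2 against 0.00 for all tested probe sets. The 2 of 29 stand beside the 4.99% of all tested probe sets that passed in that comparison, a share near which the count says nothing particular of junction genes. Fntb, the beta subunit of protein farnesyltransferase, differed by -0.32 ± 0.07 log2 (adjusted p = 0.0151), with 281 ± 25.6 units in TGT, 422 ± 80.6 in TGUT, 298 ± 32.8 in WTT and 341 ± 25.9 in WTUT (SD, n = 5 each). It kept this call in all 20 fits that left out 1 array. Within transgenic mice Fntb was the only one of the 29 to pass with training, at -0.48 ± 0.10 log2 (adjusted p = 0.0453). In that comparison 0.309% of all tested probe sets passed. The Fntb call there was lost in 7 of the 10 fits that left out 1 transgenic array: TGT-128, TGT-132, TGT-140, TGT-143, TGUT-131, TGUT-139 or TGUT-147 (adjusted p up to 0.147).

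Gabpa, the N-box factor gene named above, was the other gene that fell, by -0.28 ± 0.07 log2 (adjusted p = 0.0347). It averaged 168 ± 13.3 units in TGT, 226 ± 46.6 in TGUT, 192 ± 31.6 in WTT and 244 ± 42.6 in WTUT (SD, n = 5 each). The call was lost in 12 of the 20 fits that left out 1 array, at adjusted p-values of 0.0503 to 0.0716. These were TGT-128, TGT-140, TGUT-131, TGUT-139, TGUT-147, WTT-129, wtt-134, wtt-137, WTT-141, WTUT-130, WTUT-135 and WTUT-142. Chrne itself differed by -0.04 log2 in the same comparison, as given above.

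With array weights Fntb also passed for the transgene in untrained mice, at 0.36 log2 (adjusted p = 0.0391), and Gabpa for training in transgenic mice, at -0.35 log2 (adjusted p = 0.0062). With no weights, 0 of the 29 passed in the other 5 comparisons. The unadjusted p of the limma fit was under 0.05 for 3, 7, 2, 2, 9, 4 and 1 of the 29, in the order of the 7 comparisons above. Beside these stand 7.87%, 17.4%, 8.12%, 12.5%, 20.7%, 17.3% and 2.91% of all tested probe sets. Whether the counts exceed these shares was not tested. Ache, the acetylcholinesterase of the synaptic cleft, averaged 476 ± 93.8 units in TGT, 500 ± 121 in TGUT, 448 ± 112 in WTT and 452 ± 106 in WTUT (SD, n = 5 each). Its differences averaged over the other factor were -0.03 log2 with training and 0.11 log2 with the transgene (adjusted p = 0.915 and 0.680). The neuregulin receptor gene Erbb3 differed by 0.15 ± 0.06 log2 with the transgene averaged over training (adjusted p = 0.244). Erbb2, its partner, differed by 0.05 log2, the dystrophin relative Utrn by 0.05 log2 and the Ets factor gene Etv5 by 0.10 log2 in that comparison (adjusted p = 0.608, 0.677 and 0.574). Agrn, which encodes agrin, and Lrp4, its receptor, were under the filter at 111 and 54.1 units over all arrays. Dok7 and Hdac4 could not be read, since no probe set was annotated with either symbol alone.

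The wider denervation response had 20 of 23 listed genes on the array and 14 tested. The summed level of the 20, in which an empty cell added nothing, was 9558 to 15740 units in TGT and 11845 to 20847 in TGUT. It was 11316 to 16030 in WTT and 16500 to 19098 in WTUT, so the wild-type ranges did not overlap, while the transgenic ranges did. The sums were not tested. Fbxo32, the brightest of the 20, differed by -0.74 ± 0.30 log2 with training averaged over genotypes (adjusted p = 0.159). In that comparison 0 of the 14 rose, 1 fell and 13 did not pass, at a median of -0.08 log2 against 0.00 for all tested probe sets. The 1 of 14 is likewise near the 4.99% of all tested probe sets. The 1 that fell was Cdkn1a, which encodes the cell cycle inhibitor p21 and is also induced by other stresses, at 684 ± 124 units in TGT, 2320 ± 1041 in TGUT, 1574 ± 716 in WTT and 2518 ± 597 in WTUT (SD, n = 5 each). Its difference was -1.13 ± 0.25 log2 (adjusted p = 0.0164), and it passed in all 20 fits that left out 1 array. Within transgenic mice Cdkn1a differed by -1.51 log2 with training (adjusted p = 0.0561), and without TGUT-145 by -1.89 log2 (adjusted p = 0.00269). With array weights it passed there and for the transgene in trained mice (adjusted p = 0.000736 and 0.0144). With no weights and all arrays, 0 of the 14 passed in the 6 comparisons other than training averaged over genotypes. At an unadjusted p under 0.05 the limma fit had 1, 4, 2, 2, 4, 2 and 1 of the 14, in the order of the 7 comparisons above. The shares of all tested probe sets were 7.87%, 17.4%, 8.12%, 12.5%, 20.7%, 17.3% and 2.91%. Whether the counts exceed these shares was not tested.

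Myog, the activator of receptor genes in denervated fibres, averaged 639.8 ± 107 units in TGT, 560.1 ± 166 in TGUT, 541 ± 285 in WTT and 551 ± 199 in WTUT (SD, n = 5 each). It differed by 0.06 ± 0.19 log2 with training and 0.18 ± 0.19 log2 with the transgene, each averaged over the other factor (adjusted p = 0.913 and 0.653). Myod1 differed by 0.09 and 0.02 log2 and Runx1 by -0.03 and 0.05 log2 in those comparisons, and the smallest adjusted p of these was 0.598. Gadd45a, known to be induced in denervated muscle and under other stress, averaged 405 ± 75.1 units in TGT, 950 ± 484 in TGUT, 651 ± 291 in WTT and 633 ± 67.6 in WTUT (SD). It had a value on 18 arrays, since the cells of TGUT-139 and WTUT-142 were empty, and the fit left those 2 out. With training in transgenic mice it differed by -1.004 ± 0.27 log2 (adjusted p = 0.0788). Musk differed by -0.98 log2 in that comparison, with TGUT-139 included. Dach2 and Hdac9, repressors in the denervation pathway, were under the filter at 40.7 and 101 units.

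The genes most like each member were read as the highest Pearson r of log2 values over the 20 arrays among 7901 other genes. Each gene was read by its brightest tested probe set alone, which for Chrng and Ncam1 lay near the filter. For Musk these were Taf1d (0.96), Ampd3 (0.95) and Map3k6 (0.94), and for Rapsn they were Dpy30 (0.95), Narf (0.94) and Wfdc1 (0.94). Chrng went with Gtf3c1 (0.93), Ldb2 (0.93) and St6galnac3 (0.92), and Chrne with Abcg8 (0.89), Cux1 (0.88) and Rhbdl1 (0.88). Lower values were found for Chrna1 with Tmsb10 (0.81), Copz2 (0.80) and Lman2 (0.75) and for Ncam1 with Gpr89 (0.79), Pwwp3a (0.71) and Sh3bp4 (0.70). Chrnb1 had the weakest neighbours, Hars (0.71), Banf1 (0.67) and Tecr (0.66). None of the 21 was another member. For Musk, the same r after group means were removed was 0.95, 0.92 and 0.91, so the likeness also held among mice of the same group. The arrays share groups and scaling, and each r is the highest of many.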

How the data were processed

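Per the labels, biotin-labelled total RNA of skeletal muscle was hybridised to the arrays. Each title carries a different number, read here as 1 array per mouse. The deposited table holds a linear intensity per probe set, already scaled between arrays by the authors, as read from the similar array medians. How signals were summarised and scaled, and the genome build, is not given in the sources used here. Groups come from titles and source names. The description field, identical for all samples and at odds with these names, was not used. Values were taken as log2(intensity + 66.7), probe sets with a mean under the 40th percentile were left out, and 4 group means were fitted in limma 3.58.1 (R 4.3.3) with a variance trend, 16 residual degrees of freedom and Benjamini-Hochberg adjustment over 13576 probe sets. The code was tested on simulated data. The members and gene lists were chosen with earlier results of these data known. Named genes were all members, 16 junction and denervation genes, up to 2 passing genes per direction in each list and comparison, and the 3 most correlated genes per member. Nothing says that replicates are other than separate mice, and mouse numbers pair no samples. Motifs were searched in RefSeq windows of GRCm38.p6.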

Additional observations from a re-analysis of the deposited data

Results flagged for a closer look

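Among 60 groups of 5 mice, 1 for each of 15 probe sets and 4 groups, 5 had a mouse whose gap to its nearest neighbour exceeded 0.71 of the group's range. Chance alone flags about 1 in 20 groups. The untrained transgenic mouse TGUT-146 was high for Chrne, at 259.7 units, and for the Ncam1 probe set 1426864_a_at, at 179.7 units. The untrained wild-type mouse WTUT-138 was low for Rapsn, at 219 units. For Ncam1, the trained wild-type mouse WTT-144 was low at 76.7 units for 1421966_at, and the trained wild-type mouse wtt-137 was high at 82.0 units for 1425126_at. The array wtt-137 also had the most empty cells, 822.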

How the results depend on the processing

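Results of the tested probe sets were recomputed leaving out each array of the groups compared, in 10 or 20 fits, and, where the setting applied, under up to 11 other settings of the filter, the added constant, the scaling, the variance model, the array weights, the groups fitted, the arrays used and the probe set. Of 174 recomputed counts of members that passed, 168 stayed at 0. With array weights the counts were 2 for training in transgenic mice (Musk and Rapsn), 1 for the transgene in trained mice (Rapsn) and 2 for training averaged over genotypes (Musk and Rapsn). Under these weights 18.2%, 7.48% and 20.4% of all tested probe sets passed in the same comparisons, in that order. Leaving out 1 array gave counts of 0 to 1 for training in transgenic mice and 0 to 1 for training averaged over genotypes, the 1 being Rapsn without TGUT-145 or, for the averaged comparison, TGT-133. Without TGUT-145, 5.63% of all tested probe sets passed for training in transgenic mice and 9.47% for the averaged comparison. Without TGT-133, 5.18% passed for the averaged comparison. Of 1872 recomputed differences of single probe sets, 117 had the other sign, and 116 of these were smaller than 1 standard error to begin with. The exception was Rapsn for the transgene in untrained mice, at -0.0031 log2 with array weights. The Gabpa call for training averaged over genotypes was lost with no filter (adjusted p = 0.0511), with arrays centred on their medians (0.0586) and without wtt-137 and TGT-133 (0.0788). The Fntb call for training in transgenic mice was lost with no filter (0.0615), with centred arrays (0.0656) and with only the compared groups fitted (0.0805). With array weights 4 further calls were made for the named list genes: Fntb for the transgene in untrained mice (0.0391), Gabpa (0.0062) and Cdkn1a (0.000736) for training in transgenic mice, and Cdkn1a for the transgene in trained mice (0.0144). Cdkn1a also passed for training in transgenic mice with quantile normalization (0.0465), the stricter filter (0.0428) and without wtt-137 and TGT-133 (0.0418). The causes were not tested. No paired analysis was possible because the groups share no mouse numbers. Dim probe sets of Chrnd, Chrng and Ncam1 limit what can be seen of these genes.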
